A study of Homo sapiens with 13 samples.

Results

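The genes that bring iron into SW480 cells, release it or set its cellular balance were followed under iron chelators. They are TFRC, SLC11A2, STEAP2 and STEAP3 on the uptake side, SLC40A1 for export, NCOA4 for ferritin turnover, ACO1, IREB2 and FBXL5 for the iron regulatory proteins, and BMP6 as an iron-dependent signal. They were taken by name from a fixed list of 10, which was chosen with earlier results of these data known. Of that list 9 of the 10, out of 18404 genes tested, had a transcript cluster (the array's unit for 1 gene) named by that gene alone. IREB2 had none and was not analysed here, and the same held for the ferritin heavy chain gene FTH1. Each of the 9 had a single such cluster.

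SW480 is an established human colon cancer line. The cells had been kept for 6 h with 100 mM DFO (deferoxamine, n = 4), 50 mM Deferasirox (n = 3), 10 mM OICR623 (n = 2) or the solvent DMSO at 0.1% (n = 4), as the labels give the doses. Patients with iron overload receive DFO or Deferasirox as chelators, while the labels name OICR623 by its code alone. Millimolar is the unit in the labels; it may be an error for micromolar, which the files cannot settle, so the doses are given as labelled only. They differ between compounds. Replicates are described as biological and as independent experiments. Each of the 13 RNA samples was hybridised to an Affymetrix Human Gene 1.0 ST array.

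Mammalian cells take up transferrin-bound iron through the transferrin receptor, reduce it in endosomes and carry it into the cytosol, store it in ferritin and export it through ferroportin. When iron is scarce, the iron regulatory proteins IRP1 and IRP2 bind hairpins called iron-responsive elements. Binding stabilises the message of the transferrin receptor and blocks translation of ferritin and ferroportin. When iron is plentiful, FBXL5, which senses iron through its own iron-binding domain, marks the iron regulatory proteins for degradation.

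The arrays differed in median log2 signal, and their 13 medians formed 3 levels that cut across the treatments. The high level (7.17 to 7.19) held DFO 1 and DMSO 1, the low level (6.52 to 6.55) held DFO 4, Deferasirox 3 and DMSO 4, and the middle level (6.64 to 6.69) held 2 arrays of each group. The level was therefore a block in the fit, and changes are given from it. Arrays of 1 level correlated at 0.992 to 0.997 and arrays of different levels at 0.982 to 0.992. The median gene lay 0.58 higher on the log2 scale in the high than in the middle level, whereas SLC40A1 lay 1.26, TFRC 1.02 and ACO1 1.00 higher, FBXL5 0.44 higher, and STEAP2 was shifted by -0.20. Of 10 colon epithelial markers, EPCAM, KRT8, KRT18, KRT19 and CDX2 exceeded the array median of these genes on every array. KRT20, CDH1, VIL1, CDX1 and ELF3 did not, and KRT20 was the dimmest of the 10, at a mean of 5.28. Among the measured markers of other cell types, only COL1A1 of 6 for fibroblasts and CD68 of 4 for leukocytes exceeded that median on every array.

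FBXL5 and TFRC were the 2 members called under every compound, and the upstream sequence of each is shown here for that reason. ACGTG, a form of the core of the DNA motif bound by hypoxia-inducible factors, was searched on both strands in RefSeq promoters (GRCh38.p14, 250 bases before to 50 after a start site). Other forms of the core were not searched. Of all 35116 such promoters, 21.4% held it. All 10 genes had a promoter in the table, 16 in all, and TFRC, FBXL5 and BMP6 each had 1 with a match. The runs below are the 250 bases before the start site, read 5′ to 3′ on the minus strand, with the match in capitals; TFRC lies at chr3:196082091-196082340 and FBXL5 at chr4:15655358-15655607.

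TFRC: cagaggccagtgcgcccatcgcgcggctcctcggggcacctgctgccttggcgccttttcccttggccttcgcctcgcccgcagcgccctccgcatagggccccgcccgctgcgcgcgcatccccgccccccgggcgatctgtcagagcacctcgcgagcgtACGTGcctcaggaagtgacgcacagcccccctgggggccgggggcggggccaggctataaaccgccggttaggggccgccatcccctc
FBXL5: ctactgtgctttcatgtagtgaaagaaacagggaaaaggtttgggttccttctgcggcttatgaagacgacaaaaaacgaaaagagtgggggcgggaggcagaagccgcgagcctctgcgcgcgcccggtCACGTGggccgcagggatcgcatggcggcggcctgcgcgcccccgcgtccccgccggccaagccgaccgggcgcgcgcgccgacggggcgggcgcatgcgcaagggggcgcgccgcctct

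The TFRC match begins 88 bases before the start site. In FBXL5, matches on the 2 strands overlap in the run CACGTG and begin 120 and 119 bases before it. The BMP6 match begins 9 bases into the transcript. A match describes the letters and is no measure of binding. The FBXL5 start site used lies inside the annotated gene, chr4:15604381-15681569, and its use in SW480 cells was not tested.

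Under DFO, 4 of the 9 measured members were called at an adjusted p under 0.05: TFRC and BMP6 rose, and FBXL5 and STEAP2 fell. Over all genes 1.89% were called higher and 2.72% lower in that comparison. Under Deferasirox 5 were called, with TFRC, STEAP3 and BMP6 higher and FBXL5 and SLC40A1 lower, where 2.83% of all genes were called higher and 3.0% lower. Under OICR623 TFRC rose and FBXL5 fell, beside 0.337% of all genes called higher and 0.397% lower. The median log2 change of the 9 members was 0.03 under DFO, -0.11 under Deferasirox and -0.01 under OICR623, and that of all genes was 0.00 under each compound. In bulk RNA, fewer cells of a type and less RNA per cell cannot be told apart. Without the level as a block, limma called 0 members under any compound. The shares of all genes called were then 0.245% for DFO, 0.234% for Deferasirox and 0.0380% for OICR623. At an unadjusted p under 0.05 limma had 1 member under DFO, 1 under Deferasirox and 0 under OICR623. The share of all genes at that unadjusted threshold was not counted.

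**Figure D1:**
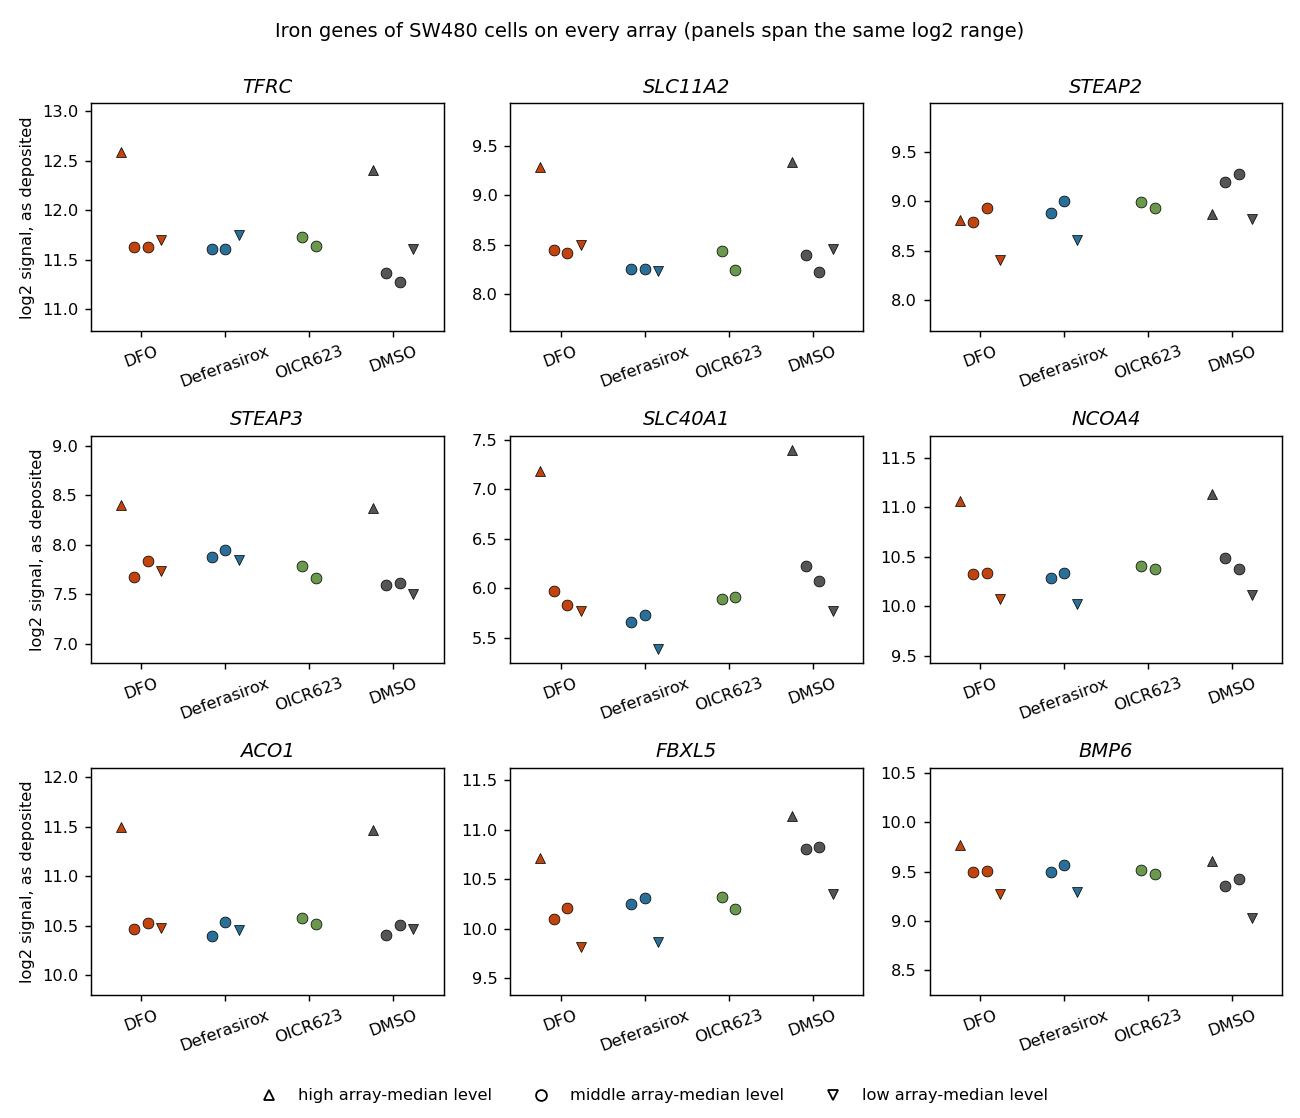
Log2 signal of the 9 measured iron genes on each of the 13 arrays, as deposited, by group, with the marker shape giving the array-median level (points are single arrays; every panel spans the same log2 range). FBXL5 lies lower under each compound than in the DMSO arrays of the same level, TFRC lies higher, and for 8 of the 9 genes the high-level DFO and DMSO arrays stand above the other arrays of their groups, STEAP2 being the exception.

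The largest change among the members was that of FBXL5, the iron-sensing subunit of the ubiquitin ligase that removes the iron regulatory proteins. Its log2 signal was 10.71, 10.09, 10.21 and 9.81 on the DFO arrays 1 to 4, 10.25, 10.31 and 9.87 on the Deferasirox arrays 1 to 3 and 10.31 and 10.20 on the OICR623 arrays 1 and 2, against 11.14, 10.80, 10.82 and 10.35 on the DMSO arrays 1 to 4. All Deferasirox and OICR623 arrays lay below all DMSO arrays, and of the DFO arrays only DFO 1, of the high level, lay above the lowest DMSO array. FBXL5 fell by 0.58 under DFO (SE 0.05, adjusted p = 5.9e-05), which is 0.671-fold. It fell by 0.50 under Deferasirox (SE 0.06, 0.709-fold, adjusted p = 4.1e-04). Under OICR623 it fell by 0.52 (SE 0.07, 0.699-fold, adjusted p = 0.0046). Level by level, DFO and DMSO differed by -0.43 (high), -0.66 (middle) and -0.54 (low). Those of Deferasirox and DMSO were -0.54 in the middle and -0.49 in the low level, and that of OICR623 and DMSO was -0.56 in the middle level. The call under OICR623 was lost without OICR623 2 (adjusted p = 0.058), while those under DFO and Deferasirox were kept without any 1 of the 13 arrays. When the 8 DFO and DMSO arrays were fitted with replicate numbers as the block, FBXL5 was the only member called (adjusted p = 0.0046). With arrays scaled to a common median or quantile-normalized in place of the level block, the DFO call was kept (adjusted p = 0.022 and 0.011), and the Deferasirox (0.081 and 0.069) and OICR623 (0.82 and 0.70) calls were not.

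TFRC encodes the transferrin receptor, whose message carries iron-responsive elements. It measured 12.59, 11.63, 11.63 and 11.70 under DFO, 11.61, 11.61 and 11.74 under Deferasirox and 11.73 and 11.64 under OICR623, against 12.41, 11.36, 11.27 and 11.61 under DMSO. The groups overlapped, because DMSO 1 of the high level exceeded every array but DFO 1, and DMSO 4 of the low level came close to the treated arrays of the middle level. With the array level held as a block, TFRC rose by 0.22 under DFO (SE 0.05, 1.17-fold, adjusted p = 0.018), by 0.23 under Deferasirox (SE 0.05, 1.18-fold, adjusted p = 0.023) and by 0.32 under OICR623 (SE 0.06, 1.25-fold, adjusted p = 0.045). In the middle level the difference from DMSO was 0.31 for DFO, 0.29 for Deferasirox and 0.37 for OICR623. It was 0.18 for DFO in the high level, and in the low level it was 0.10 for DFO and 0.14 for Deferasirox. Without the level block the Deferasirox difference was -0.0073, of the opposite sign, and the OICR623 difference was 0.02. The median change of all genes in that fit was -0.15 under Deferasirox and -0.11 under OICR623. The DFO call was lost without DMSO 2, DFO 2, DMSO 3 or DFO 3 (adjusted p = 0.053 to 0.066) and in the replicate-block fit of the 8 DFO and DMSO arrays (adjusted p = 0.076). The Deferasirox call was lost without DMSO 2, DMSO 3 or any 1 of the Deferasirox arrays (adjusted p = 0.066 to 0.084). The OICR623 call was kept without DMSO 4 and lost without any other 1 of the 13 arrays (adjusted p = 0.054 to 0.23).

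SLC11A2 encodes DMT1, the transporter that moves ferrous iron out of endosomes and into enterocytes. Its signal was 9.29, 8.45, 8.42 and 8.50 under DFO, 8.25, 8.26 and 8.24 under Deferasirox and 8.44 and 8.25 under OICR623, against 9.34, 8.40, 8.22 and 8.46 under DMSO. The high-level arrays stood apart, each compound overlapped DMSO, and the Deferasirox arrays lay below all DFO arrays. It was not called under any compound. Its change was 0.06 under DFO (95% interval -0.07 to 0.19), -0.13 under Deferasirox (-0.27 to 0.01) and -0.01 under OICR623 (-0.18 to 0.15).

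STEAP2 and STEAP3 are metalloreductases, which reduce ferric iron; STEAP2 fell under DFO and STEAP3 rose under Deferasirox. STEAP2 measured 8.81, 8.79, 8.94 and 8.41 under DFO, 8.88, 9.002 and 8.61 under Deferasirox and 8.99 and 8.93 under OICR623, against 8.87, 9.19, 9.28 and 8.83 under DMSO. Every treated array lay below the DMSO arrays of its own level. STEAP2 fell by 0.31 under DFO (SE 0.06, 0.809-fold, adjusted p = 0.020). The difference within the high level was -0.06, against -0.37 and -0.42 in the middle and low levels. This call was lost without DMSO 2, DFO 2, DMSO 3, DMSO 4 or DFO 4 (adjusted p = 0.058 to 0.094) and in the replicate-block fit of the 8 DFO and DMSO arrays (adjusted p = 0.072). STEAP2 stood at -0.23 under both Deferasirox (95% interval -0.39 to -0.07, adjusted p = 0.10) and OICR623 (-0.41 to -0.04, adjusted p = 0.34), not called in either. The Deferasirox change was called without DMSO 1 or without DFO 1, the only arrays of the high level (-0.27, adjusted p = 0.028).

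STEAP3, the main ferrireductase of erythroid endosomes, measured 8.41, 7.67, 7.84 and 7.74 under DFO, 7.88, 7.95 and 7.85 under Deferasirox and 7.79 and 7.66 under OICR623, against 8.37, 7.60, 7.61 and 7.50 under DMSO. Every treated array lay above the DMSO arrays of its own level. STEAP3 rose by 0.31 under Deferasirox (SE 0.06, 1.24-fold, adjusted p = 0.0089), with differences of 0.31 in the middle and 0.35 in the low level. That call was lost without DMSO 4 or without Deferasirox 3, which are the arrays of these groups in the low level (adjusted p = 0.051 and 0.050). The change was 0.12 without the level block and 0.05 with the replicate block in its place on all arrays, not called in either. In those fits the median change of all genes was -0.15 and -0.24. The change was 0.15 under DFO (95% interval 0.03 to 0.26) and 0.11 under OICR623 (-0.03 to 0.26), and neither was called.

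SLC40A1 encodes ferroportin, the cellular iron exporter. Its signal was 7.19, 5.97, 5.83 and 5.77 under DFO, 5.66, 5.73 and 5.39 under Deferasirox and 5.89 and 5.91 under OICR623, against 7.40, 6.22, 6.07 and 5.77 under DMSO. All Deferasirox arrays lay below all DMSO arrays. The gene was dim, above the array median on 2 of 13 arrays, both of the high level; the other 8 measured members were above it on all 13. SLC40A1 fell by 0.43 under Deferasirox (SE 0.06, 0.740-fold, adjusted p = 0.0020), with differences of -0.45 in the middle and -0.38 in the low level. This call was kept without any 1 of the 13 arrays, but not without the level block (-0.77), with arrays scaled to a common median or quantile-normalized (-0.61 in both) or with the replicate block on all arrays (-0.94). The median change of all genes was -0.15 without the level block and -0.24 with that replicate block. With the level block, SLC40A1 changed by -0.17 under DFO (95% interval -0.30 to -0.05, adjusted p = 0.13) and -0.22 under OICR623 (-0.38 to -0.06, adjusted p = 0.28). In the low level DFO 4 and DMSO 4 differed by 0.00.

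**Figure D2:**
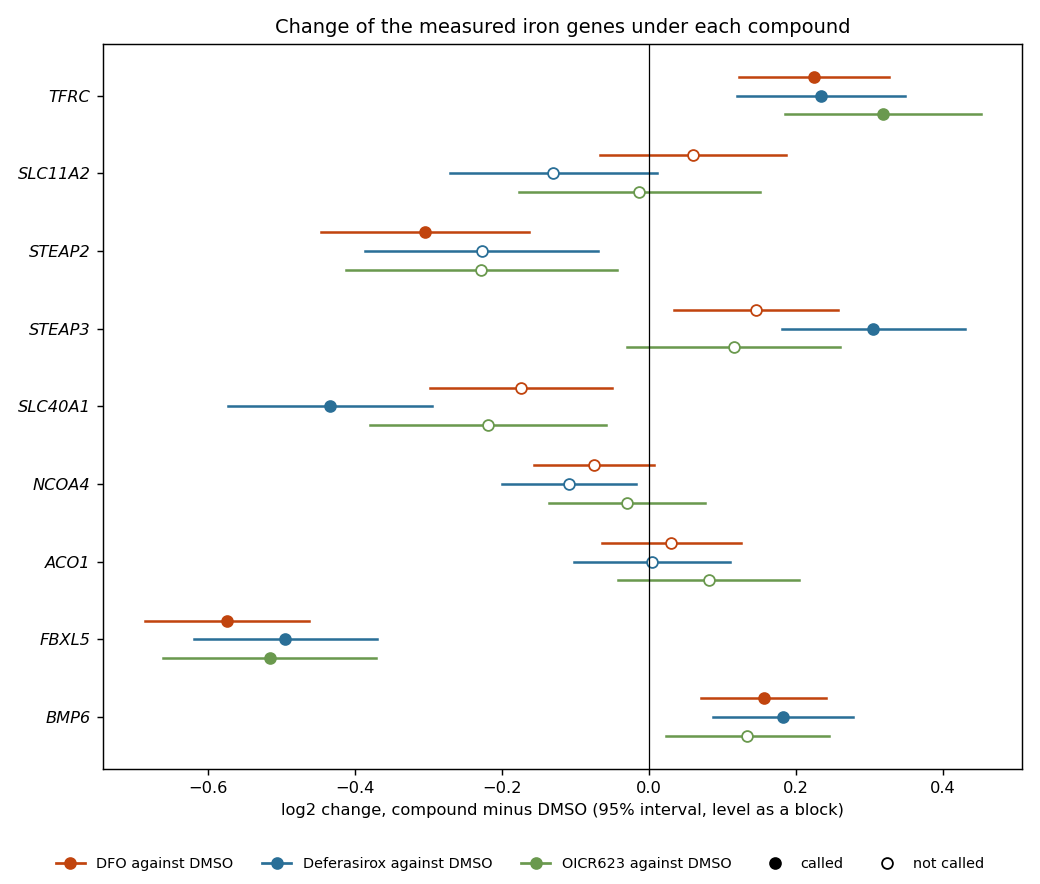
Log2 change of each measured iron gene, compound minus DMSO, from the limma fit with the array level as a block (points are estimates, bars 95% intervals, filled points called at an adjusted p under 0.05). FBXL5 lies between -0.58 and -0.50 under all 3 compounds and TFRC between 0.22 and 0.32, whereas the SLC40A1 and STEAP3 changes are filled under Deferasirox and open under DFO and OICR623.

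NCOA4 carries ferritin to lysosomes, where its iron is freed. It measured 11.07, 10.33, 10.34 and 10.07 under DFO, 10.28, 10.34 and 10.02 under Deferasirox and 10.40 and 10.38 under OICR623, against 11.13, 10.49, 10.37 and 10.11 under DMSO. The ranges overlapped under every compound. The changes were -0.07 under DFO (95% interval -0.16 to 0.01), -0.11 under Deferasirox (-0.20 to -0.02, adjusted p = 0.19) and -0.03 under OICR623 (-0.14 to 0.08), none of them called.

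ACO1 encodes IRP1, which is the cytosolic aconitase while it holds an iron-sulphur cluster and an RNA-binding protein once it has lost the cluster. Its signal was 11.50, 10.47, 10.53 and 10.48 under DFO, 10.40, 10.54 and 10.45 under Deferasirox and 10.57 and 10.51 under OICR623, against 11.47, 10.40, 10.51 and 10.47 under DMSO. Apart from the 2 high-level arrays, all 11 arrays lay between 10.40 and 10.57. The change was 0.03 under DFO (95% interval -0.06 to 0.12), 0.00 under Deferasirox (-0.10 to 0.11) and 0.08 under OICR623 (-0.04 to 0.20), none of them called.

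BMP6 is the growth factor through which liver endothelium reports iron stores and raises hepcidin. It measured 9.77, 9.50, 9.50 and 9.27 under DFO, 9.50, 9.56 and 9.29 under Deferasirox and 9.51 and 9.47 under OICR623, against 9.60, 9.35, 9.42 and 9.03 under DMSO. Every treated array lay above the DMSO arrays of its own level. BMP6 rose by 0.16 under DFO (SE 0.04, 1.11-fold, adjusted p = 0.046) and by 0.18 under Deferasirox (SE 0.04, 1.13-fold, adjusted p = 0.032), and stood at 0.13 under OICR623 (95% interval 0.02 to 0.24, adjusted p = 0.36). Under DFO it differed from DMSO by 0.16 in the high, 0.11 in the middle and 0.24 in the low level. Both calls lay close to the threshold. The DFO call was kept without DMSO 3 and lost without any other 1 of the 13 arrays (adjusted p = 0.056 to 0.20), and in the replicate-block fit of the 8 DFO and DMSO arrays (adjusted p = 0.10). The Deferasirox call was lost without DMSO 1, DFO 1, DMSO 2, DFO 2, DMSO 4, Deferasirox 2 or Deferasirox 3 (adjusted p = 0.054 to 0.16). That change was 0.0057 with the replicate block on all arrays. In that fit replicate numbers did not follow the levels for Deferasirox, and the median change of all genes was -0.24.

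**Figure D3:**
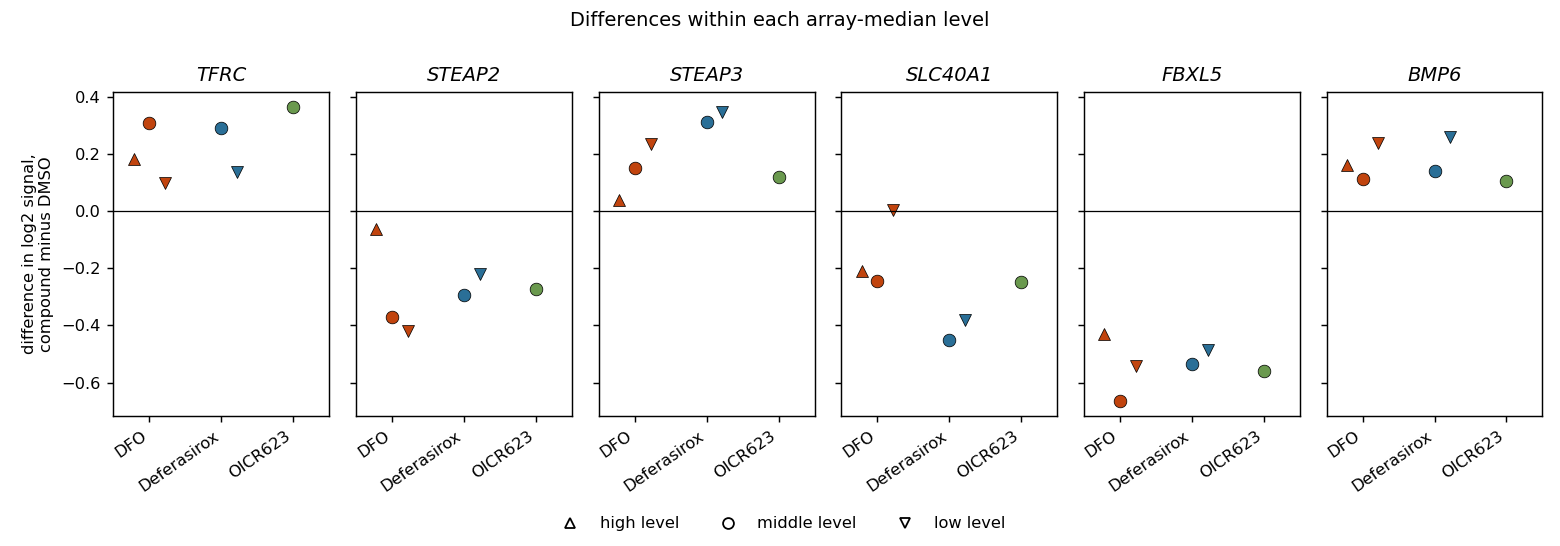
Difference in log2 signal, compound minus DMSO, within each array-median level that held both groups, for the 6 members called under at least 1 compound (1 array a group in the high and low levels, 2 in the middle). FBXL5 lies between -0.66 and -0.43 and TFRC between 0.10 and 0.37 in every level, and SLC40A1 reaches 0.00 for DFO in the low level.

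Between compounds, at doses that were not matched, 0 of the 9 members were called by limma in any of the 3 pairs; at an unadjusted p under 0.05 there were 3 for Deferasirox against DFO, 0 for OICR623 against DFO and 2 for OICR623 against Deferasirox. Calls over all genes at an adjusted p under 0.05 were also few, with 0.0435%, 0.168% and 0.0869%. The share of all genes at an unadjusted p under 0.05 was not counted. By limma p, the 3 for Deferasirox against DFO ranked 169 (SLC40A1), 741 (SLC11A2) and 872 (STEAP3) of 18404 genes. The 2 for OICR623 against Deferasirox ranked 662 (SLC40A1) and 702 (STEAP3). SLC40A1 differed by -0.26 between Deferasirox and DFO (95% interval -0.40 to -0.12, adjusted p = 0.19) and by 0.21 between OICR623 and Deferasirox (0.05 to 0.38, adjusted p = 0.43). STEAP3 differed by 0.16 between Deferasirox and DFO (0.04 to 0.28, adjusted p = 0.35) and by -0.19 between OICR623 and Deferasirox (-0.34 to -0.04, adjusted p = 0.44). SLC11A2 differed by -0.19 between Deferasirox and DFO (-0.33 to -0.05, adjusted p = 0.32). For FBXL5 the differences were 0.08 between Deferasirox and DFO (-0.04 to 0.20), 0.06 between OICR623 and DFO (-0.09 to 0.20) and -0.02 between OICR623 and Deferasirox (-0.17 to 0.13). For TFRC they were 0.01 (-0.11 to 0.12), 0.09 (-0.04 to 0.23) and 0.08 (-0.05 to 0.22) in the same pairs.

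Set at the middle level, the group means of FBXL5 were 10.20 under DFO, 10.25 under OICR623, 10.28 under Deferasirox and 10.77 under DMSO, so that the step between Deferasirox and DMSO was the only 1 between neighbours in this order to be called. The order of TFRC was 11.68 under OICR623, 11.60 under Deferasirox, 11.59 under DFO and 11.36 under DMSO, and again only the step to DMSO was called. SLC40A1 ran 5.68 under Deferasirox, 5.90 under OICR623, 5.94 under DFO and 6.12 under DMSO, and no step between neighbours was called. STEAP3 ran 7.91 under Deferasirox, 7.75 under DFO, 7.72 under OICR623 and 7.61 under DMSO, also with no step between neighbours called.

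Other genes of iron handling were called at a share near that of all genes. Of 58 genes listed beside the members, 54 were measured. Called were 2 under DFO (both lower, beside 2.72% of all genes), 3 under Deferasirox (1 higher and 2 lower, beside 2.83% and 3.0%) and 0 under OICR623. At an unadjusted p under 0.05, limma had 10, 11 and 9 of the 54, and the share of all genes at that threshold was not counted. The members STEAP3 under DFO, NCOA4 under Deferasirox and BMP6 under OICR623 also lay under that threshold. By limma p they ranked 1717, 2369 and 1176 of 18404 genes in those comparisons. At least that many genes therefore lay under it, so the counts among the 54 do not by themselves show an excess. The median log2 change of the 54 genes was 0.00 under DFO, 0.01 under Deferasirox and 0.02 under OICR623. No gene of the uptake and reduction list (11 measured), of the partners of the iron regulatory proteins and of FBXL5 (7), of other messages known to hold an iron-responsive element (5) or of mitochondrial iron import (2) was called under any compound. Of the 6 measured genes of storage and iron chaperones 1 was called, PCBP3, and of the 6 of export 1, FLVCR1, each called under Deferasirox and not under DFO or OICR623.

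In BMP and hepcidin signalling, 2 of 17 measured genes were called under DFO and 1 under Deferasirox, all lower, where 2.72% and 3.0% of all genes were called lower. The median log2 change of the 17 was -0.01 under DFO, -0.003 under Deferasirox and 0.02 under OICR623. ID2, an inhibitor of basic helix-loop-helix factors that BMP signals induce in many cells, measured 12.23, 10.86, 10.77 and 10.60 under DFO and 10.72, 10.76 and 10.61 under Deferasirox, against 12.34, 11.24, 11.28 and 11.16 under DMSO. The treated arrays lay below the DMSO arrays of their own level throughout. ID2 fell by 0.39 under DFO (SE 0.06, adjusted p = 0.0042) and by 0.48 under Deferasirox (SE 0.07, adjusted p = 0.0019), and stood at -0.26 under OICR623 (adjusted p = 0.24). ID1, of the same family and list, stood at 0.26 under DFO (adjusted p = 0.076), 0.16 under Deferasirox and 0.14 under OICR623. ID3 stood at -0.04, -0.01 and -0.01 in that order. Neither was called, and BMP pathway activity was not tested. The growth factor gene BMP4 measured 11.59, 9.71, 9.86 and 9.23 under DFO, against 11.75, 10.09, 10.04 and 9.71 under DMSO. It fell by 0.30 under DFO (SE 0.05, adjusted p = 0.0069) and stood at -0.17 under Deferasirox and -0.27 under OICR623, not called in either. In the replicate-block fit of the 8 DFO and DMSO arrays, neither DFO call was made (adjusted p = 0.057 for ID2 and 0.065 for BMP4). The Deferasirox change of ID2 was -0.81 without the level block and was not called there, where the median change of all genes was -0.15.

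PCBP3, of the family of poly(C)-binding proteins to which the iron chaperones PCBP1 and PCBP2 belong, measured 7.45, 7.54 and 6.98 under Deferasirox, against 7.54, 6.88, 7.02 and 6.83 under DMSO. It rose by 0.40 under Deferasirox (SE 0.08, adjusted p = 0.020), a call lost without DMSO 2, DMSO 3, Deferasirox 1 or Deferasirox 2 (adjusted p = 0.057 to 0.087). It stood at 0.21 under DFO (adjusted p = 0.19) and 0.20 under OICR623 (adjusted p = 0.53), and Deferasirox and DFO differed by 0.19 (95% interval 0.0012 to 0.38, adjusted p = 0.49). FLVCR1, first described as a heme exporter, measured 9.14, 9.31 and 9.01 under Deferasirox, against 9.91, 9.41, 9.51 and 9.17 under DMSO. It fell by 0.21 under Deferasirox (SE 0.05, adjusted p = 0.048), and the call was kept without OICR623 1, OICR623 2 or Deferasirox 2 and lost without any other 1 of the 13 arrays (adjusted p = 0.061 to 0.17). It stood at 0.07 under DFO and 0.03 under OICR623, and Deferasirox and DFO differed by -0.28 (95% interval -0.40 to -0.16, adjusted p = 0.13).

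**Figure D4:**
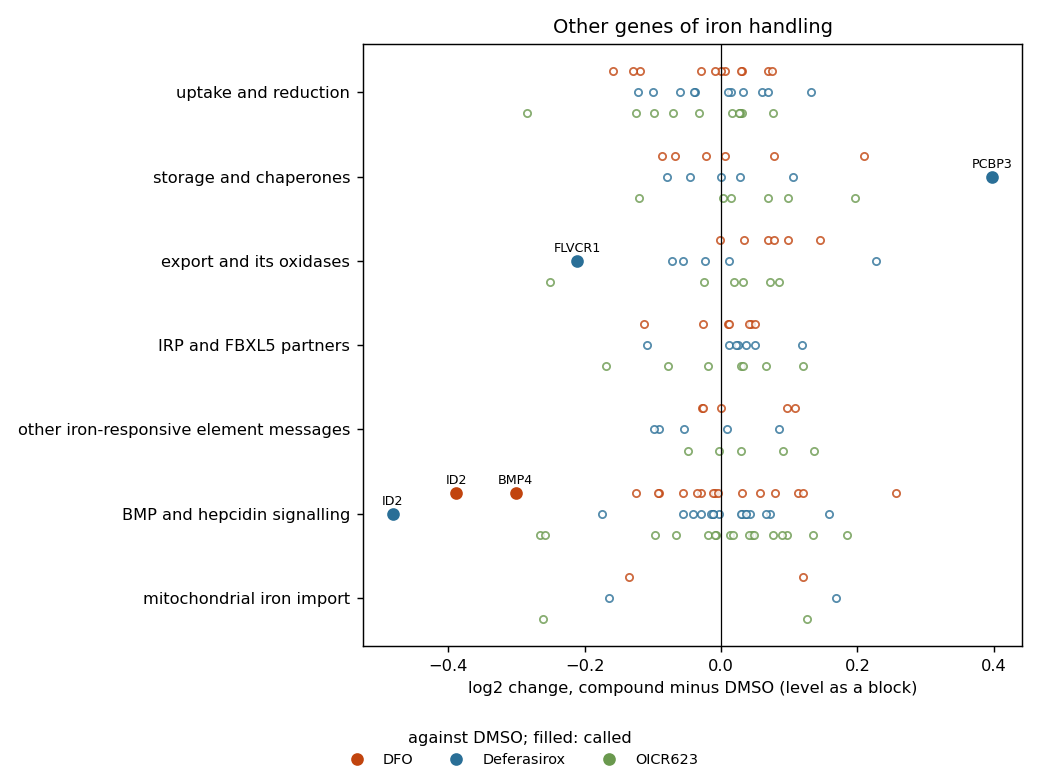
Log2 change, compound minus DMSO, of the 54 other measured genes of iron handling by list, from the limma fit with the array level as a block (1 point per gene and compound, filled and named where called at an adjusted p under 0.05). The called genes are ID2 and BMP4, lower, under DFO, and ID2 and FLVCR1, lower, and PCBP3, higher, under Deferasirox.

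For each member called under a compound, the 3 genes of the 18404 with the most similar level-adjusted values over the 13 arrays were taken by Pearson's r. The arrays share the treatments, so these values describe likeness across 4 conditions. FBXL5 was most like NINJ2-AS1, ANAPC13 and FGF20 (r = 0.979, 0.974 and 0.971), with changes under DFO of -0.50, -0.31 and -0.80. TFRC was most like LIF, ITPRIP and ITGB8 (r = 0.932, 0.930 and 0.930), with changes under DFO of 0.54, 0.25 and 0.63. SLC40A1 was most like NFIA, MYH7B and TRIM25 (r = 0.975, 0.943 and 0.934), whose changes under Deferasirox were -0.47, -0.59 and -0.25 and under DFO -0.20, -0.20 and -0.09. STEAP3 was most like PFKL, ITGB4 and RBPJ (r = 0.952 to 0.953), with changes under Deferasirox of 0.18, 0.56 and 0.24. BMP6 was most like LRRC8C, ST3GAL1 and HK2 (r = 0.984, 0.961 and 0.958), and STEAP2 like FJX1, POLR3B and TXLNG (r = 0.962 to 0.964).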

How the data were processed

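The deposited values were log2 signals of 32321 transcript clusters on 13 arrays, which the authors had already normalized; the submitters' processing notes name GCRMA and limma without versions or roles. No detection calls, scan dates or genome build are given in the sources used here. Of the clusters, 19158 carried 1 gene symbol, 1388 several and 11775 none; symbols came from the platform annotation, updated by Entrez ID. A gene with several single-gene clusters was represented by its brightest cluster, averaged over the 13 arrays, which left 18404 genes.

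The values were not rescaled, because 3 array-median levels (separated by gaps over 0.05) cut across the treatments; the level was a block in the main fit. limma 3.58.1 in R 4.3.3 (lmFit and eBayes) was fitted to all 13 arrays, with Benjamini-Hochberg adjustment over all genes within a comparison and calls at an adjusted p under 0.05. The procedure was tested on simulated data drawn from the same model of group and level. Such a test cannot show whether that model holds for these arrays. The p-values measure the spread between these samples, and the 3 comparisons with DMSO share its 4 arrays. The number of arrays limits the precision.

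Replicate numbers in the labels were tested as pairs: deviations of DFO and DMSO arrays with the same number correlated at 0.945, 0.662, 0.738 and 0.788, and each such pair also shared its level. Numbers 2 and 3 both lie in the middle level, and there the DFO and DMSO differences between them correlated at 0.256 over genes. The replicate-block fit of these 8 arrays is therefore given beside the DFO calls it changed. For Deferasirox the correlations were -0.06, 0.33 and -0.32 and for OICR623 0.29 and -0.01. Of these, only the arrays numbered 2 shared a level with the DMSO array of that number. The replicate block on all arrays thus mixed levels. The median change of all genes in that fit was -0.24 under Deferasirox and -0.27 under OICR623. The genes described in the text are the members, the called genes of the wider iron list, and the 3 genes most like each called member. ID1 and ID3 were added beside ID2. The members and lists were chosen with earlier results of these data known. Alternatives changed the block, the scaling, the filter on dim clusters, the choice among clusters, the variance model and the arrays used. Leaving out DMSO 1 or DFO 1 gave the same result, because the array that remained was alone in the high level. Leaving out a Deferasirox or OICR623 array did not alter the DFO changes themselves, only their spread. The fits with 1 array left out are therefore not separate checks.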

Additional observations from a re-analysis of the deposited data

Results flagged for a closer look

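On the deposited log2 scale, 6 of 18 groups of 4 arrays (9 genes in the DFO and the DMSO arrays) held 1 array far from the others, where chance flags about 1 in 20 independent groups. These groups share the same 8 arrays and are not independent, and all 6 values lay on the 2 arrays already known for their high median. DFO 1 stood at 12.59 for TFRC, against 11.63 to 11.70 on the other DFO arrays. It stood at 9.29 for SLC11A2, beside 8.42 to 8.50, at 7.19 for SLC40A1, beside 5.77 to 5.97, and at 11.50 for ACO1, beside 10.47 to 10.53. DMSO 1 stood at 8.37 for STEAP3, beside 7.50 to 7.61 on the other DMSO arrays, and at 11.47 for ACO1, beside 10.40 to 10.51.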

How the results depend on the processing

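The calls rested on the level as a block. Members called numbered 4 under DFO, 5 under Deferasirox and 2 under OICR623. Without the block they numbered 0, 0 and 0, with arrays scaled to a common median or quantile-normalized 1, 0 and 0, and with the replicate block in place of the level block on all arrays 0, 1 and 0. On the middle-level arrays alone they numbered 1, 2 and 1, and on the arrays of the 2 groups compared 1, 3 and 0. With the replicate block on the 8 DFO and DMSO arrays 1 member was called. Leaving out 1 array gave 1 to 3 under DFO, 2 to 5 under Deferasirox and 0 to 2 under OICR623. FBXL5 was the DFO call under the common median, quantile and middle-level settings. TFRC changed sign under Deferasirox without the level block (-0.0073) and with the replicate block on all arrays (-0.047), and under OICR623 with that replicate block (-0.125). The median change of all genes in these fits was -0.15, -0.24 and -0.27, lower than that of TFRC in each. The high level, in which TFRC lay 1.02 above the middle level, held a DMSO array and no Deferasirox or OICR623 array. The cause was not tested. Averaging clusters gave 4, 5 and 2 members, and a trended, robust variance 4, 6 and 2. Calls over all 18404 genes moved as well, from 847, 1074 and 135 in the main fit. They numbered 45, 43 and 7 without the block, 154, 170 and 19 with a common median, and 161, 185 and 25 quantile-normalized. The replicate block on all arrays gave 78, 127 and 10, the middle level alone 274, 326 and 81, and the 2 groups compared 599, 656 and 32. Averaging clusters gave 836, 1050 and 121 genes, and a trended, robust variance 1221, 1531 and 336. With the replicate block on the 8 DFO and DMSO arrays 619 genes were called. Leaving out 1 array gave 494 to 846 genes under DFO and 546 to 1066 under Deferasirox. Between compounds 0 members were called under any setting. Having 2 OICR623 arrays and a dim SLC40A1, which the filter on dim clusters removed, limits what these arrays can show.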
